A study of Mus musculus with 354 samples.

Results

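The 10 genes described here govern entry into the cell cycle: the D cyclins *Ccnd1*, *Ccnd2* and *Ccnd3*, their kinase *Cdk6*, the retinoblastoma gene *Rb1*, the CIP/KIP inhibitors *Cdkn1a* (p21), *Cdkn1b* (p27) and *Cdkn1c* (p57), and the INK4 inhibitors *Cdkn2a* (p16 and p19ARF) and *Cdkn2c* (p18). They were chosen by name, as the brake on supporting cell (SC) division, and all 10 were present among the 55367 genes of the count files. The cells were 354 single GFP+ cells sorted from the organ of Corti, the sensory epithelium of the cochlea, of P3 mouse pups. The 177 CA-ERBB2 cells came from pups that carried *Fgfr3-iCre* together with *ROSA-floxed-rtTA/GFP*, and in addition *TetON-CAERBB2*, a doxycycline-inducible *Erbb2* whose product signals without ligand, and their labels list tamoxifen at P0 and P1 and doxycycline at P2. The 177 Control cells came from littermates that had *Fgfr3-iCre* as well as *ROSA-floxed-rtTA/GFP* but no *TetON-CAERBB2*, for which the sample labels list no injection while the general protocol describes both injections for pups. Each genotype had 3 plates, with 59 wells of each plate in the data. A cell's name carries a number, read here as its plate and as 1 of 3 sorts, so the plate was the replicate and its cells were not, and pups were pooled within a preparation. The *Fgfr3-iCre* driver is active in pillar, Deiters and Hensen cells and in outer hair cells, sparsely and mostly toward the apex, so the sort could hold several cell types.

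In the textbook scheme, D cyclins bind CDK4 or CDK6 and phosphorylate RB1, which then releases E2F factors to switch on the genes of S phase. INK4 proteins block CDK4 and CDK6, whereas CIP/KIP proteins block CDK2 complexes and, in some settings, help to assemble D cyclin complexes. In the mammalian organ of Corti p27 appears as progenitors leave the cell cycle and is kept in SCs, which do not normally divide thereafter. *Mki67* and *Top2a* are transcripts of cycling cells, and cells with at least 1 count of either are called marked cells below.

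Depth and gene content differed between plates and wells. Total counts per cell ran from 1443 to 5178221, and 2 CA-ERBB2 and 33 Control cells had fewer than 100000 counts. The median number of genes detected per cell was 10200, 2954 and 1853 for CA-ERBB2 (plates 1, 2 and 3), while for Control it was 8679, 1742 and 2292. The 24 cells of wells A12 to D12, 4 on each plate, stood apart, with a median of 15540 genes against 3244 in the other wells. These wells held 19 of the 72 marked cells, and 9 of the members were detected in 70.8% to 100% of their cells; results that could rest on them are given with and without them. The cells were labelled cochlear supporting cells, and the 6 general SC markers were found in 20.3% (*Prox1*) to 51.7% (*Sox9*) of them. The 12 pillar and Deiters cell markers were found in 6.2% (*Igfbpl1*) to 68.4% (*Serpine2*), and the 6 mesenchyme markers in 36.4% to 70.6% (*Col1a2*). *Erbb2* itself was higher on the CA-ERBB2 plates (106, 46.1 and 119.6 CPM) than on the Control plates (19.8, 3.24 and 12.4 CPM), without overlap. CPM here are counts relative to 1000000 of a plate's summed counts, scaled by TMM factors, unless called unscaled. The p-values measure the spread between plates, and intervals of shares cover counting error only.

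Per kilobase of exon, the mean level over both genotypes was highest for *Cdkn1c*, at 181 CPM per kb. *Ccnd2* followed at 67.4 and *Cdkn1a* at 47.4, and *Ccnd3* stood at 19.2 CPM per kb. *Rb1* (10.6), *Ccnd1* (10.4), *Cdkn2c* (10.3) and *Cdkn1b* (7.92 CPM per kb) lay close together. *Cdk6* was below these, and the ranges over 6 plates of neighbours in this order overlapped from *Cdkn1c* to *Cdk6*, while *Cdkn2a* was almost absent. The share of all 354 cells with at least 1 count ran from 55.6% for *Ccnd3*, 53.7% for *Cdkn1c* and 52.3% for *Ccnd2* down to 13.6% for *Cdkn2c* and 0.565% for *Cdkn2a*. In each genotype the plate numbered 1, which had the most genes detected per cell, also had the highest share of cells for all 10 members.

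The D cyclin *Ccnd2*, at chr6:127125162-127152193 on the minus strand of GRCm38, showed the largest fold difference between genotypes among the members in the main edgeR fit. *Cdkn2c* was close to it there (log2 fold change 2.00) and in DESeq2 (2.08 against 2.16 for *Ccnd2*). *Cdkn2c* was larger with cells weighted equally in limma (2.16 against 1.84). It was also larger without CA-ERBB2 plate 1 (2.48 against 2.35), CA-ERBB2 plate 2 (2.30 against 1.77) or Control plate 2 (3.05 against 1.84). For *Ccnd2*, CA-ERBB2 plates 1, 2 and 3 held 628.5, 1465 and 991 CPM, while Control plates 1, 2 and 3 held 317, 148 and 255 CPM. All CA-ERBB2 plates lay above all Control plates, with means of 1028 ± 419.5 and 240.0 ± 85.8 CPM (SD, n = 3 plates each). The log2 fold change was 2.10 (SE 0.54), with p = 0.00282 before adjustment and 0.774 after adjustment over all genes in edgeR's quasi-likelihood test, so *Ccnd2* was not called. In edgeR 1 of 21416 genes was called between the genotypes, or 0.00467%, and no member was among the called. Without the filter on low counts, *Ccnd2* passed (adjusted p = 0.0469 in edgeR, where 0.727% of genes were called), and in DESeq2 it did not (adjusted p = 0.0841, where 1.10% were called). CA-ERBB2 plates above all Control plates were found for 4.20% of the genes tested, and for 2 of the 9 members tested, *Ccnd1* and *Ccnd2*.

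A few cells carried much of the *Ccnd2* signal. On CA-ERBB2 plate 2 a single cell, with 22950 CPM, gave 71.7% of the plate's *Ccnd2* counts. With all cells the unscaled plates did not overlap, at 680.5 CPM or more for CA-ERBB2 and 412.6 CPM or less for Control. When the cell with the most *Ccnd2* was left out of every plate, unscaled CA-ERBB2 levels became 707, 336 and 555 CPM. Those of Control became 372, 131 and 212 CPM, so that unscaled CA-ERBB2 plate 2 lay below Control plate 1. With all cells, scaling raised CA-ERBB2 plate 2 from 1143 to 1465 CPM and lowered Control plate 1 from 412.6 to 317.2 CPM. The overlap is therefore not shown for scaled levels, which were not tested without these cells. Without wells A12 to D12 the log2 fold change was 2.20 (p = 0.00422), and without the 36 CA-ERBB2 cells with high *Spp1*, *Timp1*, *Mmp9* and *Dmp1* described below it was 1.96 (p = 0.0142), both before adjustment in edgeR. By detection the genotypes overlapped. The share of cells with *Ccnd2* was 72.9%, 50.8% and 54.2% on the CA-ERBB2 plates and 74.6%, 28.8% and 32.2% on the Control plates (two-sided exact permutation test, p = 0.5, where 0.1 is the smallest p that 3 plates against 3 allow). In sums over a plate, fewer cells of a type and less RNA per cell cannot be told apart. The summed level of erythroid markers (4 of 4 measured, none at 0) was 24.2 to 467 CPM on the CA-ERBB2 plates and 3472 to 7670 CPM on the Control plates, that of greater epithelial ridge markers (19 of 19, none at 0) was 4273 to 6707 and 7198 to 9426 CPM, and their part in the difference was not tested.

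*Ccnd1* (chr7:144929931-144939925, minus strand), the D cyclin most often linked to mitogen signals, was lower than *Ccnd2* and followed the same order of genotypes. It stood at 51.3, 123 and 41.5 CPM on the CA-ERBB2 plates and at 25.2, 29.7 and 22.3 CPM on the Control plates, a log2 fold change of 1.48 (SE 0.60; p = 0.0322 before and 0.911 after adjustment in edgeR). The scaled plates did not overlap, but the unscaled ones did, with 67.9, 95.8 and 28.5 CPM for CA-ERBB2 and 32.7, 32.6 and 21.8 CPM for Control. Its share of cells was 62.7%, 35.6% and 27.1% on the CA-ERBB2 plates against 39.0%, 13.6% and 13.6% for Control (exact permutation test, p = 0.3). Each CA-ERBB2 plate was above the Control plate of the same number, and the genotypes overlapped because plate 1 of Control exceeded plates 2 and 3 of CA-ERBB2. A single cell gave 43.7% of the counts on CA-ERBB2 plate 2. The log2 fold change was 1.32 (p = 0.0767) without wells A12 to D12 and 0.85 (p = 0.201) without CA-ERBB2 plate 2, both before adjustment in edgeR. *Ccnd1* and *Ccnd2* were the only members with an unadjusted p under 0.05 in the direction of CA-ERBB2, a result that 2.77% of all genes tested gave, and 0 members had one in the direction of Control, against 2.39% of genes.

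*Ccnd3* (chr17:47505051-47599691, plus strand), the third D cyclin, did not follow them. Its levels of 93.1, 159.9 and 327.5 CPM in CA-ERBB2 and 79.3, 245 and 107 CPM in Control overlapped (log2 fold change 0.43, SE 0.62, p = 0.506 before adjustment). *Cdk6* (chr5:3341485-3531008), the kinase that D cyclins activate, was at 41.5, 27.6 and 18.4 CPM in CA-ERBB2 and at 61.1, 26.3 and 9.33 CPM in Control, a log2 fold change of -0.15 (SE 0.75). *Rb1* (chr14:73183673-73325822, minus strand), the target of that kinase, was at 39.2, 105.9 and 33.6 CPM against 76.8, 50.0 and 76.9 CPM, a log2 fold change of -0.19 (SE 0.59). For each of these genes the spread between plates of a genotype exceeded the difference between genotypes. The sign for *Cdk6* was not stable, as given in the closing section.

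**Figure D1:**
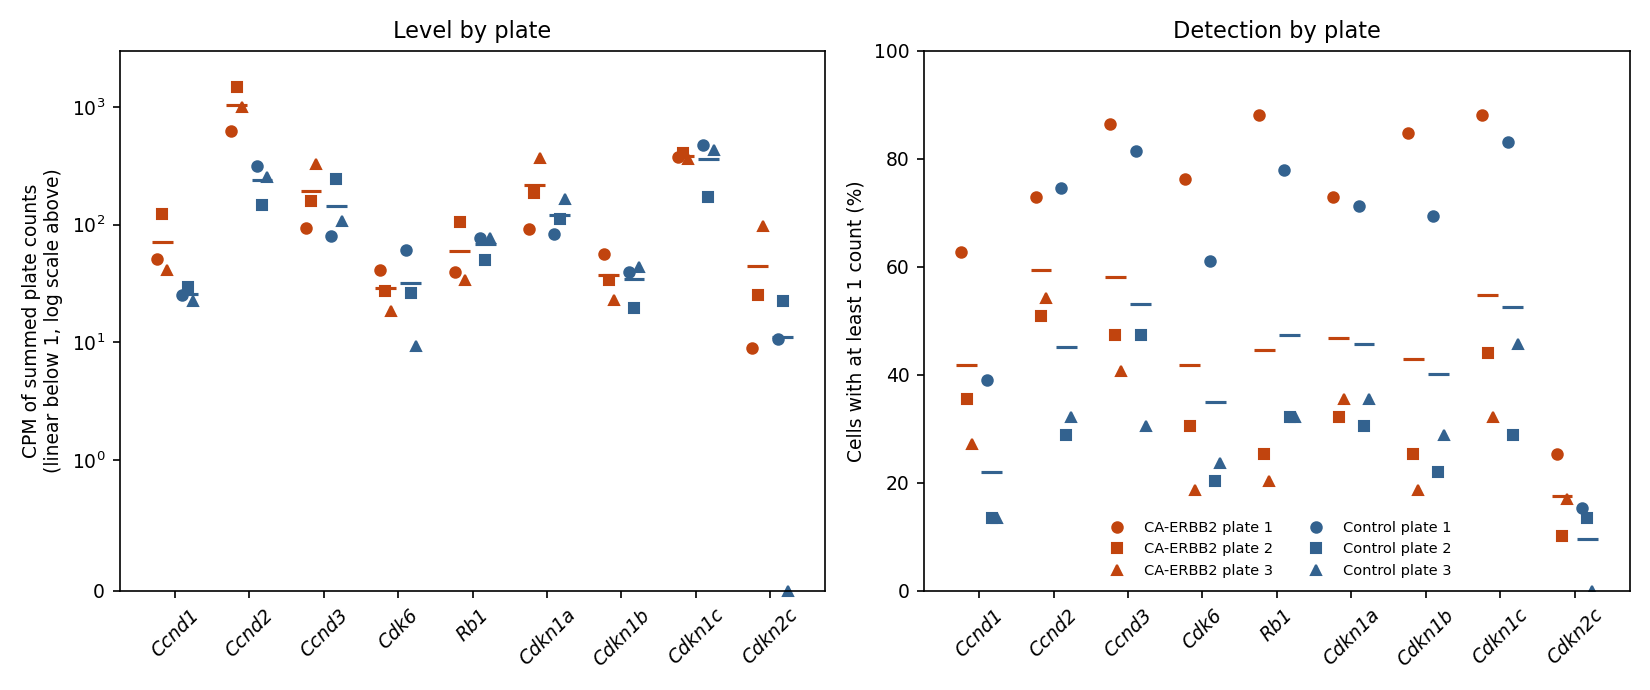
Level (left; CPM of summed plate counts, logarithmic above 1 and linear below) and detection (right; percent of the 59 cells of a plate with at least 1 count) of 9 members, where symbols are plates, colours are genotypes and dashes are means of 3 plates. *Ccnd1* and *Ccnd2* are the members whose CA-ERBB2 plates all lie above the Control plates in level, no member separates in detection, and Control plate 3 has no *Cdkn2c*.

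For each CIP/KIP inhibitor the plates of the genotypes overlapped. *Cdkn1b* (chr6:134920401-134925513), the p27 gene that marks postmitotic SCs, was at 56.2, 33.6 and 22.9 CPM in CA-ERBB2 and at 39.9, 19.7 and 43.9 CPM in Control (log2 fold change 0.12, SE 0.62, p = 0.844 before adjustment). *Cdkn1c* (chr7:143458339-143461050, minus strand), an imprinted inhibitor also listed as a marker of interdental cells, was at 372, 407 and 364 CPM in CA-ERBB2 and at 475, 173 and 427 CPM in Control (0.09, SE 0.50). For *Cdkn1c* the CA-ERBB2 plates lay within the range of the Control plates. *Cdkn1a* (chr17:29090976-29100727), the p21 gene that p53 and other stress signals induce, was at 92.1, 187 and 370 CPM in CA-ERBB2 and at 83.9, 110.6 and 166 CPM in Control, a log2 fold change of 0.85 (SE 0.59, p = 0.177 before adjustment). The 36 cells with high *Spp1*, *Timp1*, *Mmp9* and *Dmp1* gave 51.7% of the *Cdkn1a* counts of CA-ERBB2, and the log2 fold change was 0.25 without them and 0.23 without CA-ERBB2 plate 3. Detection differed by no more than 2.82 percentage points between the genotype means for these 3 inhibitors, with exact permutation p from 0.8 to 0.9. With each cell thinned to 100000 counts, which leaves out 2 CA-ERBB2 and 33 Control cells, the differences were -11.4 (*Cdkn1a*), -5.41 (*Cdkn1b*) and -6.00 (*Cdkn1c*) percentage points, lower in CA-ERBB2.

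The INK4 inhibitors were rare. *Cdkn2a* (chr4:89274471-89294653, minus strand) was found in 1 CA-ERBB2 cell, with 23 counts, and in 1 Control cell, with 5 counts, each on plate 1. The share of 1 in 177 cells has an exact binomial 95% interval of 0.0143% to 3.11% for each genotype, and the gene did not pass the filter on low counts. *Cdkn2c* (chr4:109660876-109667189, minus strand) was found in 31 CA-ERBB2 and 17 Control cells. Its plates held 8.88, 25.4 and 98.2 CPM in CA-ERBB2 and 10.6, 22.6 and 0 CPM in Control, and no cell of Control plate 3 had a count. The log2 fold change was 2.00 (SE 1.65, p = 0.252 before adjustment), and without the 36 cells it turned to -0.97, and they gave 82.6% of the *Cdkn2c* counts of CA-ERBB2. It was 0.66 without CA-ERBB2 plate 3 and 3.05 without Control plate 2. Across the members, in detection no member's CA-ERBB2 plates lay all above the Control plates, which 0.898% of 15147 genes detected in at least 10% of cells showed.

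*Cdkn2c* is shown here by its promoter because, of the members, its relation to *Mki67* and *Top2a* had the largest difference between the genotypes, described below. The window of 300 bases at chr4:109666707-109667006 (minus strand, GRCm38.p6, RefSeq) holds 1 match, in capitals, to the E2F-type motifs that were searched on both strands, TTCCCGC and its variants TTGGCGC and also TTCGCGC and also TTGCCGC. Such a match was present in 9.57% of 32851 promoter windows, and it is a description of letters and not a site.

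Cdkn2c promoter: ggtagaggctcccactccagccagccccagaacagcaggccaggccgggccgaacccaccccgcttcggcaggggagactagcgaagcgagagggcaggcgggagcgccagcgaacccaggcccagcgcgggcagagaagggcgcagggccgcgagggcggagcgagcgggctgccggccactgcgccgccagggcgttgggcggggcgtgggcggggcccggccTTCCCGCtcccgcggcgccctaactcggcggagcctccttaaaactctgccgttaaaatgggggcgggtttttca

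Windows were found for 6 of the 10 members, 10 windows in all, and beside this one a window of *Cdkn2a* (chr4:89294570-89294869) held 1 match while the other windows held none.

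Marked cells were more frequent on each CA-ERBB2 plate than on the Control plate of the same number, but the shares of the genotypes overlapped. CA-ERBB2 plates 1, 2 and 3 had shares of 42.4%, 20.3% and 13.6%, while those of Control were 27.1%, 11.9% and 6.78%. The means were 25.4% ± 15.1 and 15.3% ± 10.6 (SD over 3 plates of each genotype). A two-sided exact permutation test gave p = 0.5, where 0.1 is the smallest p that 3 plates against 3 allow. After each cell was thinned to 100000 counts the means were 17.1% and 10.2%. The levels of the marker genes did not follow the shares, with *Mki67* at a mean of 48.6 CPM in CA-ERBB2 and 47.5 CPM in Control (log2 fold change 0.03, SE 1.33) and *Top2a* at 42.2 and 59.7 CPM (-0.50, SE 0.90). Both *Mki67* and *Top2a* were detected in 14 CA-ERBB2 and 10 Control cells. Marked cells held a median of 10610 genes against 2924 in unmarked cells, and more on each of the 6 plates, so the detection of a member is given beside that of all genes.

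Of the members, *Ccnd1*, *Ccnd3*, *Cdk6*, *Rb1* and *Cdkn1a* were detected more often in marked than in unmarked cells on all 6 plates (two-sided exact sign-flip permutation test, p = 0.03125 each, the smallest that 6 plates allow). This is not particular to them, since 74.7% of 15147 genes were detected more often in marked cells on all 6 plates. *Ccnd1* had the largest gap, with 80.0%, 50.0% and 62.5% of the marked cells of CA-ERBB2 plates 1, 2 and 3 against 50.0%, 31.9% and 21.6% of the unmarked ones. On the Control plates the shares were 68.8%, 85.7% and 50.0% against 27.9%, 3.85% and 10.9%. Among cells with at least 5000 genes (median 11480 in marked and 8694 in unmarked cells), *Ccnd1* was the single member that was higher on all 6 plates, at 81.4% of 59 marked and 39.4% of 99 unmarked cells. The mean difference over plates was 48.4 percentage points (exact permutation p = 0.03125), and 27.2% of genes were higher on all plates in these cells. Without wells A12 to D12 the difference for *Ccnd1* held on 5 of 6 plates, at 25.4 percentage points (exact permutation p = 0.156), while *Ccnd3*, *Cdk6*, *Rb1* and *Cdkn1a* were higher on all 6, as were 23.5% of genes.

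*Ccnd2* and *Cdkn1c* were higher in marked cells on no more than 3 of 6 plates at this depth. *Ccnd2* was found in 74.6% of marked and 76.8% of unmarked cells with at least 5000 genes, higher in marked cells on 2 of 6 plates, with a mean difference over plates of 1.39 percentage points (exact permutation p = 0.875). *Cdkn1c* was found in 88.1% and 87.9%, higher on 3 of 6 plates (8.68 percentage points, exact permutation p = 0.375). *Cdkn2c* was found in 47.5% of marked and 12.1% of unmarked cells with at least 5000 genes, higher on 5 of 6 plates (exact permutation p = 0.0625); the sixth, Control plate 3, had none.

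By level, no member was called between marked and unmarked cells in edgeR, nor was any of 25027 genes (0.00% called; 1201 at an unadjusted p under 0.05, and 525 adjusted in DESeq2, none of them a member). The member with the smallest p was *Cdkn1c*, which was lower in marked cells, with a log2 fold change of -1.15 (SE 0.39, p = 0.0134 before and 0.96 after adjustment in edgeR). Its marked cells held 291, 108 and 226 CPM on the CA-ERBB2 plates and 195, 251 and 140 CPM on the Control plates. Its unmarked cells held 473, 545 and 411 CPM and 625, 163 and 498 CPM, so marked cells were lower on 5 of 6 plates and higher on Control plate 2. An unadjusted p under 0.05 with a lower level in marked cells was found for 2.49% of genes. The value was -1.68 (p = 0.0729) without wells A12 to D12, -0.77 (p = 0.124) when marked meant at least 10 CPM of *Mki67* or *Top2a*, and -0.46 (p = 0.334) when it meant both genes, each before adjustment in edgeR. The other 4 interdental cell markers, of which none was at 0, summed to 157 to 518 CPM in marked and 857 to 1783 CPM in unmarked cells, and their part in the result was not tested.

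The remaining members lay within the spread between plates. *Cdk6* was 0.71 higher and *Cdkn1b* 0.57 higher in marked cells on the log2 scale, each on 5 of 6 plates (p = 0.132 and 0.171 before adjustment in edgeR). *Cdkn1a* stood at -0.60, *Ccnd3* at -0.29, *Rb1* at -0.26, *Ccnd2* at -0.16 and *Ccnd1* at 0.24. The value of *Ccnd2* depended on the marking and the wells, at -0.99 (p = 0.0417) with both *Mki67* and *Top2a* required, -0.90 (p = 0.0892) at 10 CPM or more of either and -1.62 (p = 0.247) without wells A12 to D12, each before adjustment in edgeR.

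**Figure D2:**
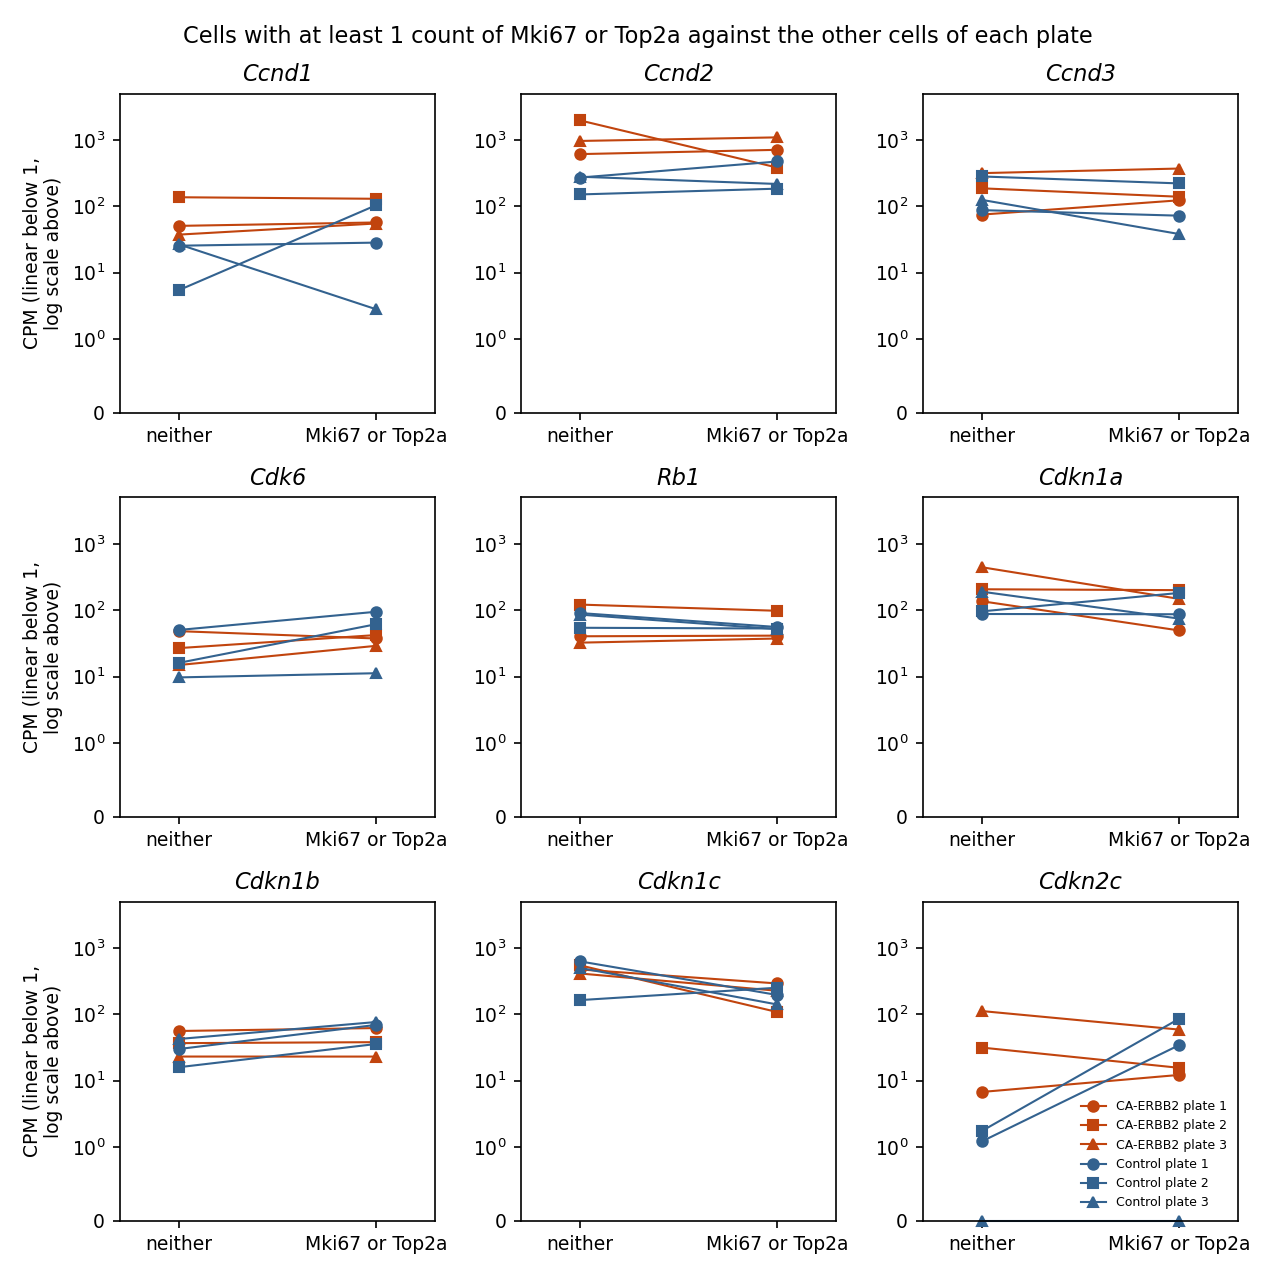
CPM of the summed counts of marked cells (at least 1 count of *Mki67* or *Top2a*) and of the other cells of the same plate for 9 members, logarithmic above 1 and linear below, with 1 line per plate. *Cdkn1c* is lower in marked cells on 5 of 6 plates, and *Cdkn2c* is far higher in them on Control plates 1 and 2 and lower on CA-ERBB2 plates 2 and 3.

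Transcripts of cyclins and inhibitors were found together in the same wells. Of the 72 marked cells, 67 had at least 1 CIP/KIP inhibitor, 67 had at least 1 D cyclin, and 65 (90.3%) had both. Of the 24 cells with both *Mki67* and *Top2a*, 24 had a CIP/KIP inhibitor and 18 had all 3. Unmarked cells with at least 5000 genes gave like shares for at least 1 CIP/KIP inhibitor, in 98 of 99 cells, and for both kinds, in 94. All 3 CIP/KIP inhibitors were found in 48 of these 99 cells and in 40 of 59 marked cells with at least 5000 genes. Whether wells A12 to D12 held single cells was not tested. Without them 46 of 53 marked cells had both kinds, as did 89 of 94 unmarked cells with at least 5000 genes. Of 15 cells with both *Mki67* and *Top2a* outside these wells, 15 had a CIP/KIP inhibitor and 9 had all 3. Of the 94 unmarked cells, 43 had all 3. All 3 D cyclins were found in 36 of 59 marked and in 32 of 99 unmarked cells of this depth.

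The marked-to-unmarked difference of *Cdkn2c* was not the same in the genotypes. On Control plates 1 and 2 it was at 34.0 and 84.9 CPM in marked cells and at 1.21 and 1.74 CPM in unmarked cells, and plate 3 had none in either. On CA-ERBB2 plates 1, 2 and 3 marked cells held 12.2, 15.6 and 58.8 CPM and unmarked cells 6.74, 31.5 and 112 CPM. Marked cells were thus higher on both Control plates with counts and on 1 of 3 CA-ERBB2 plates. The log2 fold change was 5.11 (SE 1.10) on the Control plates and -0.33 (SE 0.73) on the CA-ERBB2 plates, and the difference between them was -5.48 (SE 1.23, p = 0.00142 before and 1.0 after adjustment in edgeR). An unadjusted p under 0.05 in this direction was found for 0.623% of 25027 genes, and in the other direction for 1.47% of genes and 0 members. DESeq2 called *Cdkn2c* (-5.39, adjusted p = 0.000384), as it did 1.08% of genes, while edgeR called 0 genes (0.00%; 523 at an unadjusted p under 0.05).

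The cells behind this difference were few. In Control, *Cdkn2c* was found in 12 of 27 marked cells (44.4%, with a 95% interval, exact binomial, from 25.5% to 64.7%) and in 5 of 150 unmarked cells (3.33%, 1.09% to 7.61%). In CA-ERBB2 cells outside the 36 with high *Spp1*, *Timp1*, *Mmp9* and *Dmp1*, it was found in 9 of 33 marked cells (27.3%, 13.3% to 45.5%) and in 7 of 108 unmarked cells (6.48%, 2.65% to 12.9%). Among those 36 it was found in 9 of 12 marked and 6 of 24 unmarked cells, and the unmarked ones reached an unscaled 121 CPM. Detection thus ran higher in marked cells in every one of these sets, whereas the level was highest in unmarked cells of the 36. Without the 36 cells the difference between genotypes was -4.99 (p = 0.101), without wells A12 to D12 it was -6.90 (p = 0.0418), and in cells with at least 5000 genes it was -2.76 (p = 0.24), each before adjustment. A single cell gave 71.7% of the *Cdkn2c* counts on Control plate 2, 78.0% on CA-ERBB2 plate 2 and 59.1% on CA-ERBB2 plate 3.

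The 36 cells are CA-ERBB2 cells with at least 100 CPM of each of *Spp1*, *Timp1*, *Mmp9* and *Dmp1*, secreted or matrix-linked genes on which the study built a protein network, and are called network cells here. They numbered 3, 14 and 19 on CA-ERBB2 plates 1, 2 and 3, and the rule was applied to CA-ERBB2 cells alone. Of the members, *Cdkn2c* had the largest difference between them and the other CA-ERBB2 cells, with 24.0, 98.1 and 197 CPM against 7.11, 3.08 and 5.05 CPM. Network cells were higher on all 3 plates, a log2 fold change of 4.12 (SE 1.05, or 17.4-fold; p = 0.00366 before and 0.59 after adjustment in edgeR). DESeq2 called it (4.24, adjusted p = 0.00075), as it did 3.21% of 20920 genes, whereas edgeR called 0 genes (0.00%; 1126 at an unadjusted p under 0.05). It was detected in 15 of 36 network cells and in 16 of 141 other CA-ERBB2 cells. On plates 2 and 3 the cell with the most *Cdkn2c* was a network cell, with 78.0% and 59.1% of the plate's counts. The median over cells was 0 CPM in network cells and in the others. The difference was not tested without the cells with the most *Cdkn2c*.

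*Cdkn1a* and *Ccnd3* were also higher in network cells on all 3 plates. *Cdkn1a* was at 307, 525.5 and 508.5 CPM against 71.0, 80.7 and 237 CPM, a log2 fold change of 1.98 (SE 0.55; p = 0.00582 before and 0.645 after adjustment in edgeR). It was found in 27 of 36 network cells, in 56 of 141 other CA-ERBB2 cells and in 45.8% of Control cells. *Ccnd3* was at 426, 218 and 468 CPM against 66.1, 137 and 193 CPM (1.53, SE 0.59; p = 0.0289 before and 0.89 after adjustment), and its value was 0.77 (p = 0.206 before adjustment in edgeR) when network cells needed 1000 CPM of each of the 4 genes and 0.98 without plate 1. These 3 members were among the 2.30% of genes with an unadjusted p under 0.05 and a higher level in network cells. *Ccnd2*, at 3144, 946 and 1503 CPM against 433, 1566 and 502 CPM, was higher on plates 1 and 3 and lower on plate 2, where the cell with 22950 CPM was not a network cell (1.28, SE 0.68, p = 0.0919 before adjustment). Its value was 1.52 (p = 0.0142 before adjustment in edgeR) at 1000 CPM, 0.43 without plate 1 and 2.29 without plate 2. It was found in 32 of 36 network cells and in 73 of 141 other CA-ERBB2 cells.

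*Cdkn1b* went the other way in level. It was at 9.90, 19.6 and 7.12 CPM in network cells and at 51.9, 36.6 and 37.4 CPM in the other CA-ERBB2 cells, lower on all 3 plates (log2 fold change -1.90, SE 0.89, p = 0.0614 before and 0.937 after adjustment in edgeR). By detection the plates did not go one way, with 66.7%, 21.4% and 26.3% of network cells against 85.7%, 26.7% and 15.0% of the others on plates 1, 2 and 3. Outside wells A12 to D12 it was found in 3 of 28 network cells. Without these wells the fitted log2 fold change was -8.03 (p = 0.039 before adjustment) and rests on those 3 cells. *Cdkn1c* was much alike (257, 419.7 and 403 CPM against 334, 389 and 322 CPM; log2 fold change 0.02, SE 0.46). The general SC markers (6 of 6, none at 0) summed to 638, 251 and 302.5 CPM in network cells and to 2162, 793.5 and 841 CPM in the others, and macrophage markers (6 of 6, none at 0) to 115, 95.3 and 309 CPM against 43.8, 586 and 2.17 CPM. The summed levels of Hensen cell, greater epithelial ridge, mesenchyme and endothelium markers were also lower in network cells on all 3 plates. By detection, 2 of 5 Hensen cell, 10 of 19 ridge, 5 of 6 mesenchyme and 0 of 4 endothelium markers were found more often in network cells. Pillar and Deiters cell markers stood at 2860, 3986 and 5232 CPM against 4184, 4379 and 4969 CPM, higher on plate 3. The part of these cell types in the result was not tested. Network cells held a median of 11710, 3136 and 3404 genes on plates 1, 2 and 3 against 10130, 2929 and 1227 in the others, more on every plate.

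**Figure D3:**
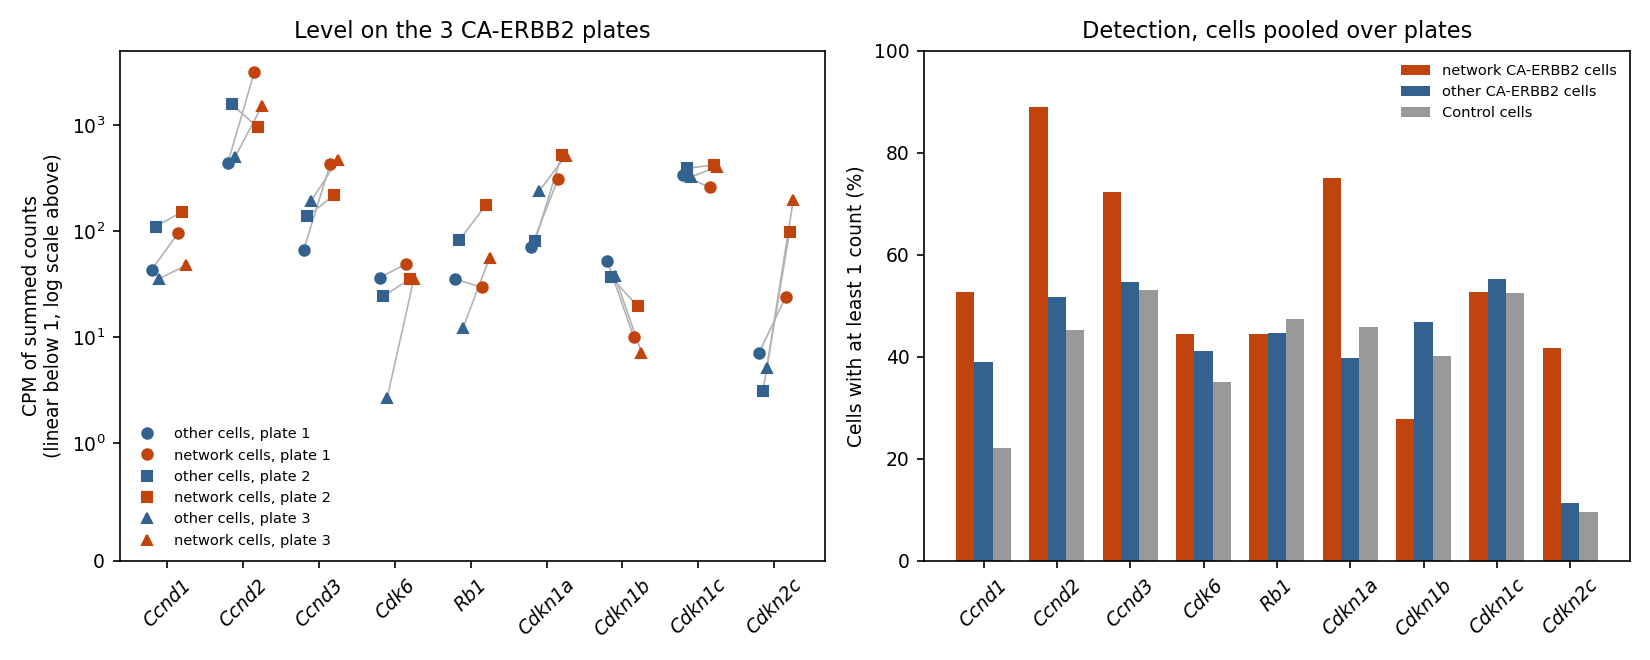
Left, CPM of summed counts of network cells and other CA-ERBB2 cells of each plate, logarithmic above 1 and linear below, with lines joining a plate; right, percent of cells with at least 1 count in network, other CA-ERBB2 and Control cells, pooled over plates. *Cdkn2c*, *Cdkn1a* and *Ccnd3* are higher in network cells on all 3 plates and *Cdkn1b* is lower on all 3, while the pooled shares mix plates of unlike depth and share of network cells.

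Clusters, made without the members among the variable genes, showed how the members were spread over the cells, and their values are descriptions. Cluster 2 (65 cells) had *Ush1c*, *Slitrk6*, *Gm9860*, *Wnt7a*, *Tekt1*, *Shisal2b*, *Urah*, *Prox1*, *Hes5* and *Npy* as its top 10 genes by fold and is called supporting cell-like from the markers *Prox1* (general SC), *Hes5* and *Npy* (pillar and Deiters cell) and *Shisal2b* (Hensen cell) among them. Cluster 1 (98 cells), high in *Col3a1*, *Col1a2* and *Dcn*, and cluster 4, with 38 cells of which all were CA-ERBB2 and which was led by *Spp1*, *Timp1*, *Mmp9* and *Dmp1*, are left unnamed. Clusters 0 (112 cells, median 1469 genes) and 3 (41 cells, 36 of them Control, median 229 genes) were shallow and are not named either. In cluster 1 the 6 mesenchyme markers were found in 64.3% (*Col1a1*) to 99.0% (*Col1a2*, *Col3a1*) of cells, against 18.5% (*Prrx1*) to 64.6% (*Col1a2*) in cluster 2. *Epcam* was found in 31.6% of cluster 1 and 100% of cluster 2. The ridge markers *Epyc* and *Itm2a* were found in 81.6% and 84.7% of cluster 1. *Cdkn1b* was the member most tied to the supporting cell-like cluster, found in 83.1% of its cells at a mean of 118 CPM, against 74.5% at 30.7 CPM in cluster 1 and 15.8% at 2.28 CPM in cluster 4. *Ccnd2* was arranged in the opposite way, with 35.4% of cells and 97.0 CPM in the supporting cell-like cluster, 91.8% and 661 CPM in cluster 1, and 86.8% and 1544 CPM in cluster 4. *Cdkn1c* was found in 95.9% of cluster 1 cells, at 580 CPM, and in 67.7% of the supporting cell-like cells, at 242 CPM. These CPM are means over cells pooled from plates of unlike depth, without TMM scaling. Of the 98 cells of cluster 1, 35 came from CA-ERBB2 plate 1 and 35 from Control plate 1. On Control plate 2 *Cdkn1b* was lower in cluster 2 than in cluster 1 (16.3 against 32.8 CPM). On Control plate 1 *Cdkn1c* was higher in cluster 2 (659 against 619 CPM). The other plates went the way of the pooled means for these comparisons.

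**Figure D4:**
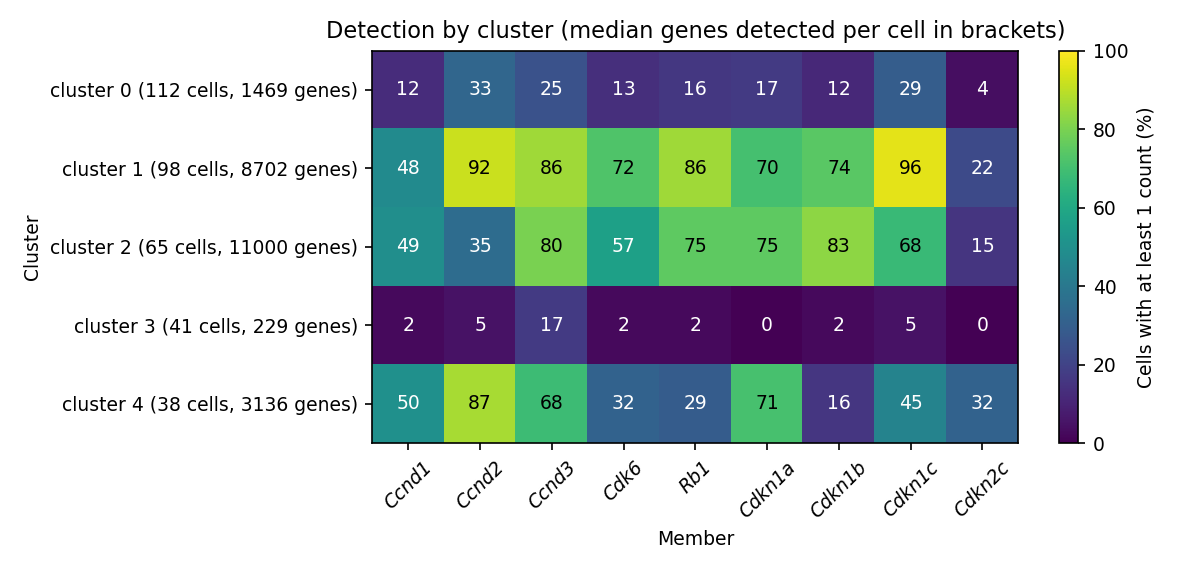
Percent of the cells of each of the 5 clusters with at least 1 count of 9 members, with the number of cells and the median of genes detected per cell at each cluster. *Ccnd2* is found in 92% of cluster 1 and 35% of cluster 2, the supporting cell-like cells, and *Cdkn1b* in 83% of cluster 2 and 16% of cluster 4.

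Within clusters, the genotypes overlapped for *Ccnd2*. In cluster 1 its mean was 975, 285 and 739 CPM on the CA-ERBB2 plates and 585, 279 and 351 CPM on the Control plates (exact permutation p = 0.3). In the supporting cell-like cluster it was 81.6, 231 and 0.76 CPM against 105, 80.4 and 73.3 CPM (exact permutation p = 0.8), where CA-ERBB2 plate 3 had 3 cells. *Cdkn1b* in the supporting cell-like cluster was 167, 95.9 and 187 CPM in CA-ERBB2 and 135, 16.3 and 93.5 CPM in Control (exact permutation p = 0.2). Of 27 pairs of a member and a cluster in clusters 0, 1 and 2, 1 was without overlap in level, against 8.89% of such pairs over 15147 genes. It was *Rb1* in cluster 1, at 69.4, 43.4 and 59.2 CPM in CA-ERBB2 and 106, 112 and 469 CPM in Control (exact permutation p = 0.1, the smallest that 3 plates against 3 allow). In detection 2 pairs were without overlap, *Rb1* in cluster 0 and *Cdk6* in cluster 1, against 7.74% of pairs over these genes.

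The marked cells of the clusters were not alike. In cluster 1 the 31 marked cells held a median of 127 CPM of *Mki67* and *Top2a*, and 24 of them had at least 10 CPM, out of 38 such cells in all clusters. In the supporting cell-like cluster the 24 marked cells held a median of 3.31 CPM, 6 of them had at least 10 CPM, and 8 lay in wells A12 to D12. *Cdkn1b* was found in all 24 of these cells, at a mean of 132 CPM, and in 30 of the 41 unmarked supporting cell-like cells, at 110 CPM. *Ccnd1* was found in 19 of the 24 and in 13 of the 41, while the means were 74.0 and 76.1 CPM. In cluster 1, *Cdkn2c* was found in 17 of 31 marked cells, at 40.0 CPM, and in 5 of 67 unmarked cells, at 3.39 CPM. *Ccnd1* was found in 24 of these 31 and in 23 of these 67 cells. The marked cells had more genes detected in both clusters, with a median of 10120 against 8187 in cluster 1 and 12300 against 7998 in the supporting cell-like cluster.

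Other genes of the pathway were read from lists. Of 37 further CDK, cyclin, RB and E2F genes, none was called in any comparison in edgeR; between genotypes 2 had an unadjusted p under 0.05, *Cdkn2b* and *Cks1b*, both higher in CA-ERBB2 as were 2.77% of all genes, and the median log2 fold change was 0.19 against -0.02 over all genes. Between marked and unmarked cells, 29 of 37 were above 0 and 8 had an unadjusted p under 0.05, all higher in marked cells, with *Ccnb2*, the mitotic cyclin B2, at 6.58 (SE 0.94, p = 5.08e-05 before and 0.349 after adjustment). Of 20 E2F targets of S phase entry, 20 were above 0 in marked cells and 7 had an unadjusted p under 0.05, with a median of 1.61 against -0.0042 over all genes. *Rrm2*, a subunit of ribonucleotide reductase, was at 4.61 (p = 0.00225 before adjustment) and *Cdc6*, which loads the replicative helicase, at 5.74 (p = 0.00672). Higher in marked cells at an unadjusted p under 0.05 were 2.31% of all genes. Of the members, 0 of 9 met this, although 4 of 9 were above 0, with a median of -0.16. For p53 and its targets (19 genes) the median in marked cells was -0.35, with 1 gene higher and 1 lower at an unadjusted p under 0.05. Among 8 ERK-responsive genes, 3 were higher in network cells at an unadjusted p under 0.05, *Spry4*, *Phlda1* and *Dusp6*, as were 2.30% of all genes, and 0 were called. *Cdkn2b*, *Cks1b*, *Ccnb2*, *Rrm2*, *Cdc6* and these 3 were named after their values were seen.

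For 6 members the gene with the most similar pattern over cells was one that overlaps it on the opposite strand. The likeness is the within-plate rank correlation given the number of genes detected, averaged over 6 plates, for 15147 genes. The pairs were *Ccnd1* with *LTO1* (0.66), *Ccnd2* with *Gm43126* (0.70), *Ccnd3* with *Bysl* (0.78), *Cdk6* with *Gm17590* (0.46), *Rb1* with *Lpar6* (0.58) and *Cdkn1c* with *Gm44732* (0.80). Whether the kit marks strand is not given in the sources used here, and without strand the reads of a member and of its opposite-strand partner cannot be told apart. *Gm43126*, with 65195 counts beside the 530267 of *Ccnd2*, differed between genotypes by 1.94 (p = 0.00796 before adjustment in edgeR), close to *Ccnd2*, and *LTO1* by 1.14 (p = 0.0802). *Cdkn1b*, with no overlapping gene in the annotation, had as nearest genes *Kcnj10*, a potassium channel gene (0.50), *Kif21a* (0.48) and *Fam102a* (0.48). *Cdkn2c* was nearest to *Tubb6* (0.41), *Fam111a* (0.40) and *Cenpm*, a centromere protein gene (0.39), and *Cdkn1a* to *1700023B13Rik* (0.79), *Actr3* (0.32) and *Bag1* (0.31). The exons of *Cdkn1a* also overlap a gene on the opposite strand, named AC167363.2 in Gencode M21 and matched to no name in the count files, so the limit on strand holds for it too. Between members the correlations were lower, from -0.17 for *Ccnd2* with *Cdkn1b* to 0.25 for *Ccnd1* with *Cdkn2c*. Cells of a plate share depth and preparation, so these values are descriptions.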

How the data were processed

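Single GFP+ cells of P3 organs of Corti were sequenced with SMART-Seq Single PLUS, without molecular identifiers. The authors trimmed the reads, aligned them to GRCm38 with STAR 2.7.6a and counted them per gene on the exons of Gencode M25 by strand with featureCounts of Subread 2.0.1; what the authors deposited are counts, whole and not normalized, for each cell. Fewer cells were analysed here than the study's text describes, and no cell was left out unless stated. Doublets had been removed by scatter at the sorter, and no doublet caller was run.

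Total counts were 1443 to 5178221 per cell, and their number limits the detection of low genes. Of 55367 genes, 39201 had at least 1 count. Plate sums of the counts went through filterByExpr and into edgeR 4.0.16 (R 4.3.3, TMM factors, quasi-likelihood test, Benjamini-Hochberg adjustment, called at 0.05). Marked and network cells were compared with the other cells of their plate with plate as a term. Shares of cells were compared by exact permutation of plates. DESeq2 1.42.0, limma 3.58.1, other filters and detection levels, cells thinned to 100000 counts and each plate left out in turn were the alternatives, with the 36 network cells left out, and joint detection without wells A12 to D12, as ones chosen after the data had been seen. Simulated data were used to test the edgeR fit. Clusters came from Seurat 5.3.0 with sctransform 0.4.2, 30 principal components and a resolution of 0.2, with the members removed from the variable genes. Coordinates are from Gencode M21 on the same build, and promoter windows are from RefSeq. *Cdkn1c* was left out of its list of interdental markers.

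The members and lists were chosen with earlier results of these data known. The genes named are the members, *Mki67*, *Top2a*, up to 5 genes a direction called from each list, of which there were 0, and the 3 genes nearest to each member in likeness. The same-numbered plates of the genotypes correlated at 0.246, 0.0624 and 0.0393, and plates of different number from -0.129 to 0.0512. The numbers were not taken as pairs, and whether same-numbered plates shared a sort was not tested.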

Additional observations from a re-analysis of the deposited data

How the results depend on the processing

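The number of genes called between genotypes was 1, and it was 285 with no filter on low counts, 235 with DESeq2, 5 with limma on cells weighted equally, 0 on plates 2 and 3 alone, 0 without network cells, and 0 to 2 when a plate was left out (0 without Control plate 1 or 3, 2 without CA-ERBB2 plate 1). Between marked and unmarked cells 0 became 5 with no filter, 525 with DESeq2, 4 without wells A12 to D12, 19 when marked meant both *Mki67* and *Top2a*, and 6 in cells with at least 5000 genes. For the difference of that contrast between genotypes 0 became 2 with no filter and 270 with DESeq2, and for network cells 0 became 97, 671 and, without wells A12 to D12, 12. DESeq2 moved the median of all genes by 0.11 in the marked and 0.14 in the network comparison (log2). The members higher in detection in marked cells on all plates numbered 5, and 2 with cells thinned, 9 for both markers on 5 plates, 1 in cells with at least 5000 genes, and 5 to 8 with a plate left out (8 without CA-ERBB2 plate 1). The members whose genotypes did not overlap in detection numbered 0, and 0 to 2 with a plate left out (2 without Control plate 1). The difference in the share of marked cells was 10.2 percentage points and ranged from 1.69 without CA-ERBB2 plate 1 to 16.1 without CA-ERBB2 plate 3 or Control plate 1.

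The log2 fold changes that turned in sign had not passed adjustment in edgeR, and the causes were not tested. Between genotypes, *Cdk6* turned to 0.11 in limma and 0.38 on plates 2 and 3 alone, where *Rb1* was 0.14 and *Cdkn1b* -0.16, and *Cdkn2c* to -0.97 without network cells. With a plate left out, *Ccnd3* ranged from -0.17 to 1.04, *Cdk6* from -0.56 to 0.71, *Rb1* from -0.89 to 0.12, *Cdkn1b* from -0.30 to 0.39 and *Cdkn1c* from -0.25 to 0.34. Between marked and unmarked cells, *Ccnd1* was -1.07 and *Cdk6* -0.15 without wells A12 to D12, and *Ccnd1* -0.79 without network cells. In cells with at least 5000 genes *Ccnd2* was 0.31, *Ccnd3* 0.13 and *Rb1* 0.10. On CA-ERBB2 plates alone *Ccnd3* was 0.22, *Rb1* 0.02 and *Cdkn2c* -0.33, and on Control plates alone *Ccnd2* was 0.28. With a plate left out *Ccnd1* ranged from -0.36 to 0.81 and *Ccnd2* from -0.35 to 0.24. For network cells *Cdkn1c* was -0.06 with no filter, -0.88 without wells A12 to D12, -1.82 at 1000 CPM of each network gene, and -0.12 to 0.22 with a plate left out.

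The difference between genotypes in detection (percentage points) was, with cells thinned, -11.4 for *Cdkn1a*, -5.41 for *Cdkn1b* and -6.00 for *Cdkn1c*. At 10 CPM or more it was -1.13 for *Cdkn1a* and -1.69 for *Cdkn1b*. In cells with at least 100000 counts and under 20% mitochondrial counts it was -2.41 for *Ccnd3*, -7.49 for *Cdkn1a*, -4.59 for *Cdkn1b* and -6.64 for *Cdkn1c*. Without network cells it was -2.13 for *Ccnd3*, -9.36 for *Cdkn1a* and -0.968 for *Cdkn1c*. With a plate left out it ranged from -9.04 to 19.2 for *Ccnd3*, -10.5 to 19.8 for *Cdk6*, -24.6 to 12.4 for *Rb1*, -11.9 to 13.8 for *Cdkn1a*, -18.1 to 17.5 for *Cdkn1b* and -14.4 to 17.5 for *Cdkn1c*.

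The plate numbers were not taken as pairs in the main fit. With the plate number as a replicate block 1 gene was called, *Ccnd2* was 2.07 (p = 0.00529 before adjustment in edgeR), *Cdk6* 0.15 and the difference in the share of marked cells 10.2 percentage points (exact permutation p = 0.25, the smallest that 3 pairs allow).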

Other observations

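*Cdkn2b* (p15), the INK4 inhibitor that lies beside *Cdkn2a* and is not one of the 10 members, had a larger difference between genotypes than any of them, and it is named after its values were seen. It was at 12.9, 41.8 and 21.5 CPM on CA-ERBB2 plates 1, 2 and 3 and at 0.214, 1.70 and 0.132 CPM on Control plates 1, 2 and 3, without overlap. It was found in 11, 9 and 8 cells of the CA-ERBB2 plates, of which 3, 6 and 7 were network cells, and in 1, 2 and 3 cells of the Control plates. The log2 fold change was 5.22 (SE 1.27; p = 0.00191 before and 0.774 after adjustment over all genes in edgeR). It passed in edgeR without the filter on low counts (adjusted p = 0.0189) and in DESeq2 (5.24, adjusted p = 0.000199), and without network cells it was 4.37 (p = 0.0201 before adjustment in edgeR).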
